A study of Homo sapiens with 6 samples.

Results

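Homologous recombination copies an intact sister chromatid to mend a broken chromosome, and the Fanconi anemia pathway unhooks crosslinks that stall a replication fork and hands the resulting break to recombination. Transcripts of 33 genes of these pathways were followed by RNA-seq. They were chosen by symbol from a list of BRCA mediators, strand-exchange factors, Fanconi anemia proteins, the BLM complex and the checkpoint kinases ATR, ATM, CHEK1 and CHEK2. All 33 were found among the 61806 genes of the deposited table, and all 33 passed the filter on low counts. Of the 6 libraries, all of HCT116 cells, 3 were made after treatment with a non-targeting control siRNA (si-NC) and 3 after an siRNA against STRIP2 (si-STRIP2). STRIP2 is a protein of the STRIPAK assembly, which joins a phosphatase to kinases, and HCT116 is a human colorectal carcinoma line that lacks mismatch repair. The labels call the control cells wildtype and the others STRIP2 knockdown, and all came from 1 cell line under 1 culture protocol. Neither the siRNA sequence, the time after delivery nor the use of separate cultures for libraries of 1 group is given in the sources used here, so the p-values measure the spread between these libraries, which may be technical.

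In a dividing cell these genes act mostly in S and G2 phase, when a sister chromatid is present, and their transcripts are known to vary with the cell cycle. BRCA1 with BARD1 prepares the break, PALB2 links BRCA1 to BRCA2, and BRCA2 prepares the broken end for strand exchange with the template. In the Fanconi anemia pathway a core complex, with UBE2T as the ubiquitin-conjugating enzyme and FANCL as the ligase, marks the pair FANCD2 and FANCI with ubiquitin.

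Total counts ranged from 17184963 to 21721218 per library. The counts of single members ranged from 136, for RAD51B, to 3615, for FANCI, so none was near the floor of detection. STRIP2 itself had FPKM values (counts scaled to exon length and library total) of 3.19, 3.77 and 3.81 in si-NC and of 2.71, 2.53 and 2.58 in si-STRIP2 (log2 fold change -0.46, edgeR adjusted p = 1.62e-05), and the groups did not overlap. The epithelial markers EPCAM, KRT8, KRT18, KRT19 and CDH1 were expressed and VIL1 was under 1 FPKM. Their summed level was 688 to 718 FPKM in si-NC and 664 to 688 in si-STRIP2. Within it CDH1 fell from 35.10, 37.95 and 36.75 to 23.99, 24.01 and 24.55 FPKM, and KRT19 rose from 143.28, 141.23 and 135.44 to 162.4, 169.03 and 160. Their part in the results was not tested. All 4 blood markers and all 3 endothelial markers were under 1 FPKM in every library, as were 3 of 4 fibroblast markers, with COL1A2 and DCN at 0.

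In si-STRIP2 cells 20 of the 33 genes were higher and 5 were lower at an edgeR adjusted p under 0.05, and 8 were not called. Over all 15687 genes tested, 27.8% were called higher and 27.0% lower, 54.8% in all, against 60.6% higher and 75.8% called among the members. The members' median log2 fold change was 0.25, beside 0.014 over all genes tested, and their values ran from -0.81 for RMI1 to 0.77 for FANCA. Called changes reached 1.5-fold in 4 members upward (FANCA, FANCM, FANCD2 and CHEK2) and in RMI1 downward, where 6.35% of all genes tested were called at least 1.5-fold higher and 8.1% at least 1.5-fold lower. On library-scaled counts the groups did not overlap for 24 members, 20 of them higher and 4 lower, beside 59.7%, 30.2% and 29.5% of all genes tested. Cell cycle lists moved in the same libraries: 21 of 23 G1/S genes rose and RRM2 (-0.18) and CDC6 (-0.17) fell (median 0.48), and all 20 G2/M genes rose (median 0.36). Their part in the changes of the 33 genes was not tested. In RNA from bulk cells, more cells in the phase that expresses a gene and more RNA per cell cannot be told apart.

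**Figure D1:**
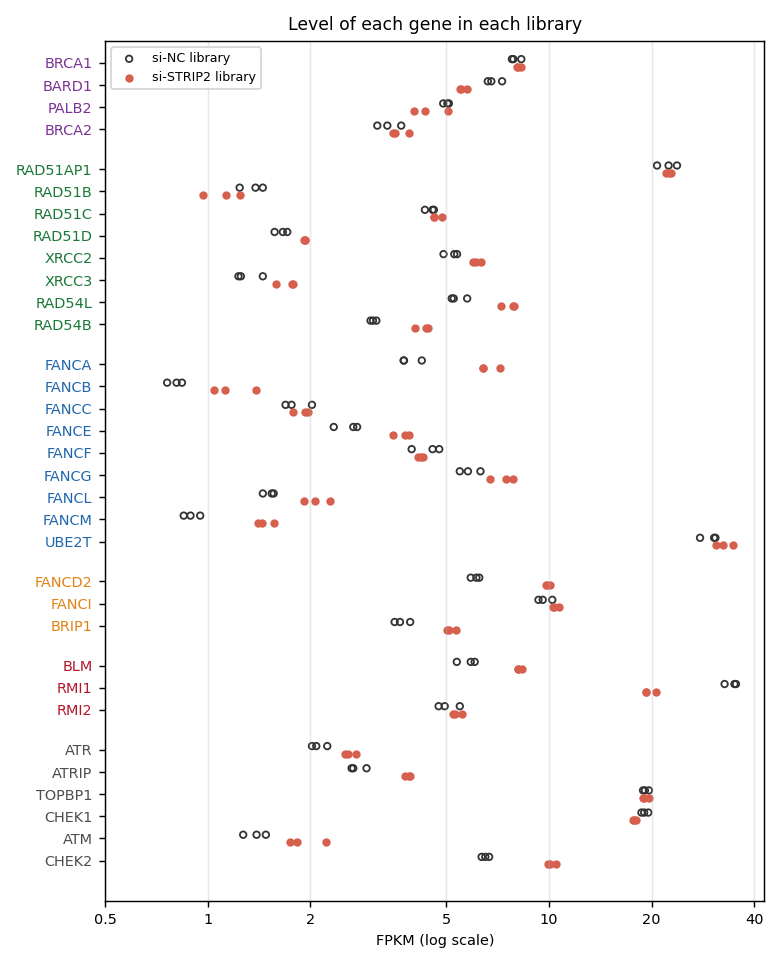
FPKM of the 33 genes in each of the 6 libraries, on a log axis, with open circles for si-NC and filled circles for si-STRIP2, and gene names coloured by role. RMI1 is the highest in si-NC (32.74 to 35.35 FPKM) and falls to 19.2 to 20.66, while most genes under 10 FPKM shift to the right.

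The largest single rises, those of FANCA and FANCM, were in the Fanconi anemia core complex. Counted with UBE2T, 7 of 9 genes rose and none was called lower (median log2 fold change 0.46). The median of FANCD2, FANCI and BRIP1 was 0.48. FANCA (ENSG00000187741, chromosome 16, 89726683 to 89816977, minus strand), which forms a subcomplex of the core with FANCG, had FPKM values of 3.75, 3.76 and 4.24 in si-NC and of 7.18, 6.39 and 6.41 in si-STRIP2. Every si-STRIP2 library lay above every si-NC library, and the rise was 1.70-fold (log2 fold change 0.77 with an SE, the standard error, of 0.053, edgeR adjusted p = 2.97e-14). Genes overlapping FANCA, chiefly ZNF276 on the opposite strand, held 34.4% as many counts, and ZNF276 itself had a log2 fold change of 0.10 (edgeR adjusted p = 0.283). The promoter of FANCA (RefSeq, GRCh38.p14, chr16:89816598-89816897, minus strand, 250 bases before the RefSeq start and 50 after it, a start that can differ from that of the deposited table) is shown because this gene rose most. Capitals mark the E2F, CCAAT and GC box words described further on.
FANCA: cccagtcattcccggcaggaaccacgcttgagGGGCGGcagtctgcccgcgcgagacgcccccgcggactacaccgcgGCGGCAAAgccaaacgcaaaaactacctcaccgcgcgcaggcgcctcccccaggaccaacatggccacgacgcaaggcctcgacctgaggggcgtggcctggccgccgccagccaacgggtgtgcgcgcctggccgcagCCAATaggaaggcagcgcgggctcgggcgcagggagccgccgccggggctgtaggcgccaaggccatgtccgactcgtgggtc

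FANCM, the translocase that anchors the core complex on DNA, had some of the lowest FPKM values of the members, 0.89, 0.85 and 0.95 in si-NC and 1.44, 1.56 and 1.40 in si-STRIP2. Its groups were well apart (1.63-fold, log2 fold change 0.71 with an SE of 0.075, edgeR adjusted p = 6.93e-10). FANCL, the ubiquitin ligase, rose from 1.45, 1.54 and 1.56 to 2.28, 1.91 and 2.06 FPKM (1.37-fold, edgeR adjusted p = 4.05e-09), with VRK2 on the opposite strand holding 75.4% as many counts and a log2 fold change of -0.15. UBE2T, the conjugating enzyme that works with FANCL, had higher FPKM values, 30.51, 30.77 and 27.74 in si-NC and 34.60, 30.82 and 32.43 in si-STRIP2. Its si-NC counts of 1279, 1028 and 920 were close to the 1199, 1014 and 1016 of FANCL. The FPKM gap between these genes thus follows mostly their exonic sizes, 1930 and 37977 bases, by which counts are divided. The si-STRIP2 libraries of UBE2T lay above the control ones, narrowly so between the nearest pair, and the log2 fold change was 0.13 (edgeR adjusted p = 0.0286). The UBE2T call was lost in 9 of 16 alternatives, among them DESeq2 (adjusted p = 0.0981), and without si-NC replicate 3 (0.085, edgeR adjusted p = 0.17), si-STRIP2 replicate 1 (0.10, 0.166) or si-STRIP2 replicate 3 (0.13, 0.0643).

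The subunits that bridge or stabilise the core varied. FANCB, which holds the ligase module together with FANCL, rose from a mean of 0.803 ± 0.0404 to 1.18 ± 0.178 FPKM (SD, n = 3), a log2 fold change of 0.55 (edgeR adjusted p = 1.59e-05). FANCE, which binds FANCD2, rose by 0.52 (7.64e-06 by the same test), from 2.58 ± 0.214 to 3.72 ± 0.201 FPKM. FANCG rose by 0.33, from 5.86 ± 0.414 to 7.34 ± 0.567 FPKM (edgeR adjusted p = 5.20e-05). FANCC and FANCF, the partners of FANCE in its subcomplex, were not called. FANCC stood at 1.69, 2.02 and 1.76 FPKM in si-NC and 1.78, 1.97 and 1.93 in si-STRIP2 (log2 fold change 0.053 with an SE of 0.065, edgeR adjusted p = 0.513). FANCF, a gene of a single exon, stood at 4.56, 4.77 and 3.96 in si-NC and 4.27, 4.12 and 4.22 in si-STRIP2 (log2 fold change -0.082 with an SE of 0.089, edgeR adjusted p = 0.45). In both, the si-STRIP2 libraries lay within or across the control range, so FANCE was called and its subcomplex partners were not; the difference between them was not tested.

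FANCD2 and FANCI form the clamp that the core complex ubiquitinates, and they changed to different extents. FANCD2 (ENSG00000144554, chromosome 3, 10026370 to 10101932, plus strand) had 5.90, 6.25 and 6.13 FPKM in si-NC and 9.82, 10.10 and 9.85 in si-STRIP2. The groups lay far apart for their spread, and the rise was 1.63-fold (log2 fold change 0.70 with an SE of 0.043, edgeR adjusted p = 1.19e-15), the smallest adjusted p among members that rose. FANCI had 9.32, 10.23 and 9.59 FPKM in si-NC and 10.31, 10.71 and 10.32 in si-STRIP2, groups that barely parted (log2 fold change 0.10 with an SE of 0.041, edgeR adjusted p = 0.0322). The FANCI call was lost in 12 of 16 alternatives, including DESeq2 (adjusted p = 0.0659), and without si-NC replicate 1 (0.078, edgeR adjusted p = 0.165), si-NC replicate 3 (0.093, 0.0547), si-STRIP2 replicate 2 (0.086, 0.145) or si-STRIP2 replicate 3 (0.11, 0.0693). POLG, which overlaps FANCI on the opposite strand, held 23.3% as many counts and had a log2 fold change of 0.54. The ratio of FANCD2 to FANCI in FPKM was 0.633, 0.611 and 0.639 in si-NC and 0.952, 0.943 and 0.954 in si-STRIP2, 1.51-fold higher. FPKM divides counts by exonic size, 11855 bases for FANCD2 and 17853 for FANCI. The ratio is therefore read between groups and not as a ratio of transcript numbers. BRIP1 (also FANCJ), a helicase that binds BRCA1, rose from 3.53, 3.66 and 3.92 to 5.33, 5.03 and 5.10 FPKM (1.39-fold, log2 fold change 0.48, edgeR adjusted p = 7.73e-11). The FANCD2 promoter (RefSeq, GRCh38.p14, chr3:10026187-10026486, plus strand) is shown because the gene rose nearly as much as FANCA and its capitals hold an E2F word at the start site.
FANCD2: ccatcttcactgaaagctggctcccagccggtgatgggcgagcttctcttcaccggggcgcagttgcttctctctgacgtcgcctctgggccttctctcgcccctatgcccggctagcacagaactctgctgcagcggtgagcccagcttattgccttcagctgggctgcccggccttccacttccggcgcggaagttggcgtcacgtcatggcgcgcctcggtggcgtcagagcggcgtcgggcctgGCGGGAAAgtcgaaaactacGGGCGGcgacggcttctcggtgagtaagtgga

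The BLM complex, which dissolves the crossed intermediates of recombination without exchange, held the largest fall and a rise side by side. RMI1 (ENSG00000178966, chromosome 9, 83980798 to 84004074, plus strand), the scaffold that joins the BLM helicase to its topoisomerase, had the highest FPKM of the members in si-NC, at 32.74, 35.35 and 35. In si-STRIP2 it stood at 19.20, 19.20 and 20.66, which is 57.3% of the control level (log2 fold change -0.81 with an SE of 0.046, edgeR adjusted p = 1.90e-16). Every control library was far above every si-STRIP2 library, and 95.2% of all genes tested had a higher log2 fold change. BLM (ENSG00000197299, chromosome 15, 90717346 to 90816166, plus strand) went the other way, from 5.37, 5.90 and 6.06 to 8.13, 8.13 and 8.32 FPKM (1.42-fold, log2 fold change 0.51 with an SE of 0.051, edgeR adjusted p = 2.65e-10). RMI2, the small subunit that binds RMI1, was not called, with 4.95, 4.75 and 5.48 FPKM in si-NC and 5.57, 5.32 and 5.23 in si-STRIP2 (log2 fold change 0.086 with an SE of 0.079, edgeR adjusted p = 0.371). Genes overlapping RMI2 held 14.5% as many counts. Genes overlapping RMI1 and BLM held 0.246% and 0.401% as many counts. The ratio of BLM to RMI1 was 0.164, 0.167 and 0.173 in si-NC and 0.423, 0.423 and 0.403 in si-STRIP2, 2.48-fold higher, the widest shift of the 13 partner ratios computed. The promoters of both genes (RefSeq, GRCh38.p14, chr15:90717096-90717395 and chr9:83980109-83980408, both on the plus strand) are set side by side because the genes share a complex and moved in opposite directions. Both hold CCAAT words in capitals, and GC boxes are present in that of BLM alone. The start sites are those of RefSeq, and the RMI1 window ends before the start of the gene in the deposited table.
BLM: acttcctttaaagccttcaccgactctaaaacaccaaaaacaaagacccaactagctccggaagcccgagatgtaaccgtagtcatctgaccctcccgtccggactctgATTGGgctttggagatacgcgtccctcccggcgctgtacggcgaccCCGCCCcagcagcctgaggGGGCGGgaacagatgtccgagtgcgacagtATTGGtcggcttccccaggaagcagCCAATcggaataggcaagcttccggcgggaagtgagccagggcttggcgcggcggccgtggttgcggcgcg
RMI1: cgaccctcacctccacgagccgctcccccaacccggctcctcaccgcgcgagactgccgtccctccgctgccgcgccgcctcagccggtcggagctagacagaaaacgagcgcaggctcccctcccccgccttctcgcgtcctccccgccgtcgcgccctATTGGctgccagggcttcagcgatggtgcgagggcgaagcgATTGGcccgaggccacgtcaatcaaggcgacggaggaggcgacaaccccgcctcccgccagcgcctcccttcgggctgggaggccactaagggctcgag

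Among the BRCA mediators, BARD1 and PALB2 fell and BRCA1 and BRCA2 were not called (median log2 fold change of the 4 genes -0.072). BARD1 (ENSG00000138376, chromosome 2, 214725646 to 214809683, minus strand), the ring-finger partner that BRCA1 needs for stability and ligase activity, went from 6.78, 7.29 and 6.62 to 5.75, 5.53 and 5.48 FPKM. No gene overlaps it, the groups did not overlap, and 81.0% of the control level remained (log2 fold change -0.31 with an SE of 0.052, edgeR adjusted p = 7.15e-06). The change of BARD1 did not pass a test against a 1.2-fold change (edgeR adjusted p = 0.228). BRCA1 stood at 7.79, 8.30 and 7.87 FPKM in si-NC and 8.27, 8.12 and 8.05 in si-STRIP2, with the groups interleaved (log2 fold change 0.027 with an SE of 0.041, edgeR adjusted p = 0.595). Reads of genes overlapping BRCA1 came to 26.0% of its counts, and the largest of them, NBR2, had a log2 fold change of -0.55. The ratio of BRCA1 to BARD1 was 1.15, 1.14 and 1.19 in si-NC and 1.44, 1.47 and 1.47 in si-STRIP2. The promoter of BARD1 (RefSeq, GRCh38.p14, chr2:214809634-214809933, minus strand) is shown as that of a gene that fell, with its 5 GC boxes in capitals.
BARD1: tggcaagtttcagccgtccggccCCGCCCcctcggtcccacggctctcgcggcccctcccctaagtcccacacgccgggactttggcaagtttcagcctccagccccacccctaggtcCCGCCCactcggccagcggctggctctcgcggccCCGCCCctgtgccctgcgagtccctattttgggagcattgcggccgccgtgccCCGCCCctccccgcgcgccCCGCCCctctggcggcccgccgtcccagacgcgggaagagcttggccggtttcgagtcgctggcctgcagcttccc

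PALB2 showed a fall that rested on 1 library more than the others. It had 5.04, 5.09 and 4.90 FPKM in si-NC and 4.02, 4.33 and 5.06 in si-STRIP2, where the third si-STRIP2 library lay within the control range (log2 fold change -0.17 with an SE of 0.068, edgeR adjusted p = 0.0327). The PALB2 call was lost in 8 of 16 alternatives, including DESeq2 (adjusted p = 0.0798). Leaving out a library ended it for si-NC replicate 1 (-0.16, edgeR adjusted p = 0.0959), si-NC replicate 2 (-0.17, 0.0521), si-STRIP2 replicate 1 (-0.09, 0.305) and si-STRIP2 replicate 2 (-0.15, 0.113). Without si-STRIP2 replicate 3 the fall was larger (-0.27, 0.00103). BRCA2 stood at 3.14, 3.69 and 3.36 FPKM in si-NC and 3.89, 3.49 and 3.53 in si-STRIP2, with overlapping groups (log2 fold change 0.10 with an SE of 0.055, edgeR adjusted p = 0.128). Without si-NC replicate 2 it was called higher (0.15, edgeR adjusted p = 0.0285). BRCA1 and BRCA2 had a ratio of 2.36 ± 0.117 in the controls and 2.24 ± 0.105 after knockdown (SD, n = 3; exact permutation test, 2-sided, p = 0.4).

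Of the 8 strand-exchange factors, 5 rose and RAD51B fell (median log2 fold change 0.24). RAD54L, a DNA translocase that opens the template for strand exchange, rose from 5.19, 5.26 and 5.76 to 7.26, 7.90 and 7.83 FPKM (1.42-fold, log2 fold change 0.50 with an SE of 0.069, edgeR adjusted p = 1.84e-07). Its relative RAD54B rose from 3.12, 3.05 and 3.00 to 4.35, 4.41 and 4.06 FPKM (1.39-fold, log2 fold change 0.48 with an SE of 0.076, edgeR adjusted p = 2.17e-06). The groups were clear of each other for both, and the ratio of RAD54L to RAD54B was 1.77 ± 0.134 in the controls and 1.80 ± 0.130 after knockdown (SD, n = 3; exact permutation test, 2-sided, p = 0.7). Both are counted beside busy neighbours. LRRC41, opposite to RAD54L, held 125% as many counts and had a log2 fold change of -0.0047, and FSBP, on the same strand as RAD54B, held 94.5% as many and had one of -1.22. How reads in the shared stretches were divided is not given, so their part in these values was not tested.

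Of these factors, 5 work in 2 complexes, in which RAD51B, RAD51C, RAD51D and XRCC2 form one and RAD51C with XRCC3 the other. XRCC2 rose from 4.91, 5.38 and 5.28 to 6.34, 6.01 and 6.11 FPKM (log2 fold change 0.25, edgeR adjusted p = 0.000527). RAD51D rose from 1.57, 1.66 and 1.71 to 1.93, 1.93 and 1.92 FPKM (log2 fold change 0.23, edgeR adjusted p = 0.0104), a call lost without si-NC replicate 1 (0.19, 0.0597) and under limma on log2(FPKM + 1) (adjusted p = 0.0583). The ratio of these 2 neighbours in the complex overlapped between groups, at 0.317 ± 0.00793 in the controls and 0.313 ± 0.0084 after knockdown (SD, n = 3; exact permutation test, 2-sided, p = 0.6). RAD51B, whose gene spans 910 kb, was the least abundant member in si-STRIP2, at 1.45, 1.38 and 1.24 FPKM in si-NC and 0.97, 1.24 and 1.13 in si-STRIP2. Its highest si-STRIP2 value touched its lowest control value (log2 fold change -0.30 with an SE of 0.11, edgeR adjusted p = 0.024). Genes overlapping RAD51B held 10.1% as many counts, and the largest of them, on the opposite strand, had a log2 fold change of 1.15. The RAD51B call was lost in 6 of 16 alternatives, with DESeq2 (adjusted p = 0.0747), without si-NC replicate 1 (-0.24, edgeR adjusted p = 0.133) and without si-STRIP2 replicate 1 (-0.19, 0.183) among them. RAD51C, the subunit common to both complexes, was not called, at 4.56, 4.60 and 4.33 FPKM in si-NC and 4.60, 4.61 and 4.85 in si-STRIP2 (log2 fold change 0.055 with an SE of 0.046, edgeR adjusted p = 0.318). XRCC3 rose from 1.45, 1.25 and 1.23 to 1.77, 1.78 and 1.58 FPKM (log2 fold change 0.37 with an SE of 0.099, edgeR adjusted p = 0.00196), but KLC1 on the opposite strand held 317% as many counts and was itself 0.26 higher. RAD51AP1, which promotes invasion of the template, stood at 22.43, 23.74 and 20.75 FPKM in si-NC and 22.76, 22.03 and 22.53 in si-STRIP2, all within the control range (log2 fold change 0.0047 with an SE of 0.050, edgeR adjusted p = 0.945).

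**Figure D2:**
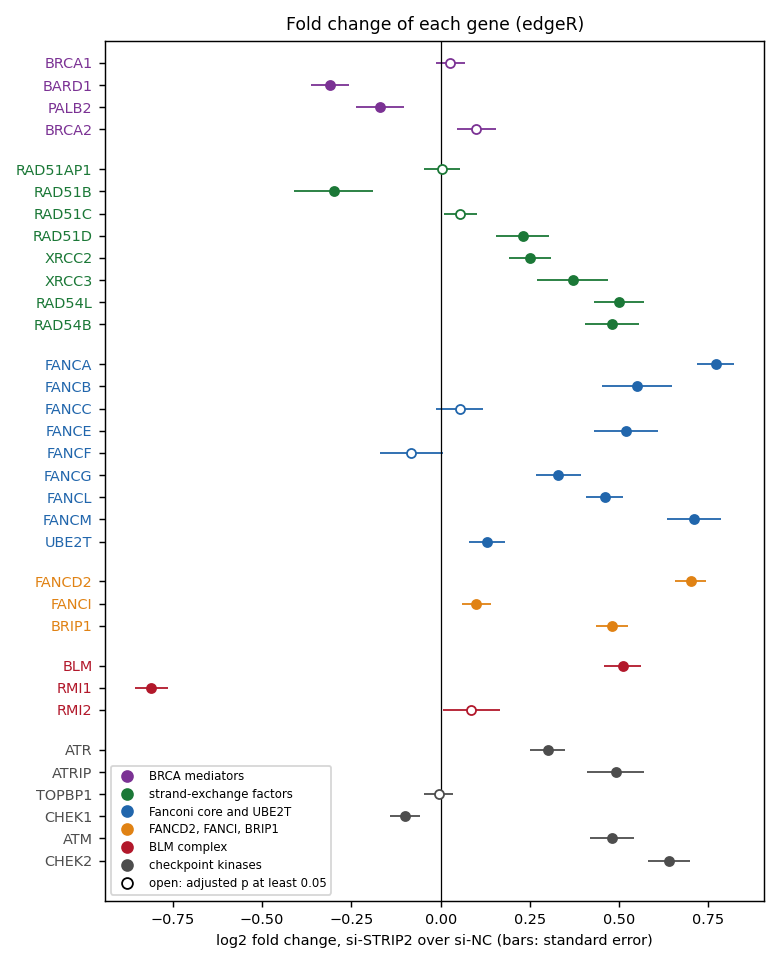
Log2 fold change of each gene, si-STRIP2 over si-NC, with its standard error, coloured by role; filled points have an edgeR adjusted p under 0.05. Most points lie to the right of 0, RMI1 stands alone at -0.81, and the 4 BRCA mediators lie between -0.31 and 0.10.

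Of the 6 checkpoint genes, 4 rose, CHEK1 fell and TOPBP1 was not called (median log2 fold change 0.39). The branch led by ATM, the kinase activated by double-strand breaks, is represented here by ATM and CHEK2, and both transcripts rose. ATM had 1.27, 1.48 and 1.39 FPKM in si-NC and 2.22, 1.74 and 1.83 in si-STRIP2 (1.40-fold, log2 fold change 0.48 with an SE of 0.062, edgeR adjusted p = 3.87e-08). With 1 library left out, the log2 fold change of ATM ran from 0.38 to 0.55. Its effector kinase CHEK2 rose from 6.68, 6.35 and 6.51 to 10.05, 10.50 and 9.96 FPKM (1.56-fold, log2 fold change 0.64 with an SE of 0.058, edgeR adjusted p = 2.11e-11). No library of one group came near the other for CHEK2, whose 7 annotated pseudogenes held 0.0244% as many counts and whose opposite-strand neighbour HSCB, at 31.7%, had a log2 fold change of -0.24. The promoter of CHEK2 (RefSeq, GRCh38.p14, chr22:28741771-28742070, minus strand) is shown as that of the checkpoint gene that rose most, with 3 CCAAT words and 1 GC box in capitals.
CHEK2: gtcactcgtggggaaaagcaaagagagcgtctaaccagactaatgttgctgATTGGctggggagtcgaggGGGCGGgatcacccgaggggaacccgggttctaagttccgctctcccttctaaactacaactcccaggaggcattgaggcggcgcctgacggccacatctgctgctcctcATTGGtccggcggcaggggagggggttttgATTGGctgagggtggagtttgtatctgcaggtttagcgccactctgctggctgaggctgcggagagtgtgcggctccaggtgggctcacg

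The branch that answers stalled forks was split. ATR, its kinase, rose from 2.02, 2.08 and 2.24 to 2.72, 2.52 and 2.58 FPKM (log2 fold change 0.30 with an SE of 0.049, edgeR adjusted p = 2.84e-06). ATRIP, which brings ATR to coated single strands, rose from 2.92, 2.67 and 2.64 to 3.78, 3.88 and 3.92 (1.40-fold, log2 fold change 0.49 with an SE of 0.080, edgeR adjusted p = 3.82e-06). The groups of both were apart, and their ratio was 0.773 ± 0.0785 in the controls and 0.676 ± 0.0382 after knockdown (SD, n = 3; exact permutation test, 2-sided, p = 0.2). TOPBP1, the activator of ATR, stood at 19.12, 19.64 and 18.88 FPKM in si-NC and 18.88, 19.72 and 18.95 in si-STRIP2, nearly the same 3 values (log2 fold change -0.0054 with an SE of 0.041, edgeR adjusted p = 0.921). CHEK1, the effector kinase of ATR, had 19.02, 19.56 and 18.68 FPKM in si-NC and 17.62, 17.75 and 17.99 in si-STRIP2 (log2 fold change -0.10 with an SE of 0.042, edgeR adjusted p = 0.0328). The groups did not overlap, but the CHEK1 call was lost in 7 of 16 alternatives. It was lost without si-NC replicate 1 (-0.10, edgeR adjusted p = 0.0724), si-NC replicate 2 (-0.10, 0.0832), si-STRIP2 replicate 1 (-0.089, 0.122) or si-STRIP2 replicate 2 (-0.10, 0.0835). STT3A, which overlaps CHEK1 on the same strand, held 222% as many counts and had a log2 fold change of -0.14. The ratio of CHEK1 to CHEK2 was 2.85, 3.08 and 2.87 in si-NC and 1.75, 1.69 and 1.81 in si-STRIP2, 1.68-fold lower.

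Partner ratios do not depend on how libraries are scaled, and they were compared for 13 pairs. Most pairs were fixed by known partnership, and others, such as CHEK1 with CHEK2 and ATR with ATM, by related roles in separate branches. For 7 of them the 3 ratios of one group lay wholly on one side of the other. Among single genes the groups did not overlap for 59.7% of all genes tested. No such share was computed for ratios of other gene pairs, so the count of 7 has no background of its own. BLM to RMI1, RMI2 to RMI1, FANCD2 to FANCI and BRCA1 to BARD1 were higher in si-STRIP2, by 2.48-, 1.86-, 1.51- and 1.26-fold. CHEK1 to CHEK2, RAD51C to XRCC3 and UBE2T to FANCL were lower, by 1.68-, 1.25- and 1.25-fold. Each of these 7 gave the smallest p that 3 against 3 allows, 0.1, by the exact permutation test (2-sided), which is 0.186 after Benjamini-Hochberg adjustment over the 13 pairs, so none could pass a threshold of 0.05. The ratio of RMI2 to RMI1 was 0.151, 0.134 and 0.157 in si-NC and 0.290, 0.277 and 0.253 in si-STRIP2. The other 6 pairs, among them ATR to ATM (1.54 ± 0.113 and 1.36 ± 0.119; SD, n = 3) and BRCA2 to PALB2 (0.678 ± 0.0514 and 0.824 ± 0.136), overlapped between groups.

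**Figure D3:**
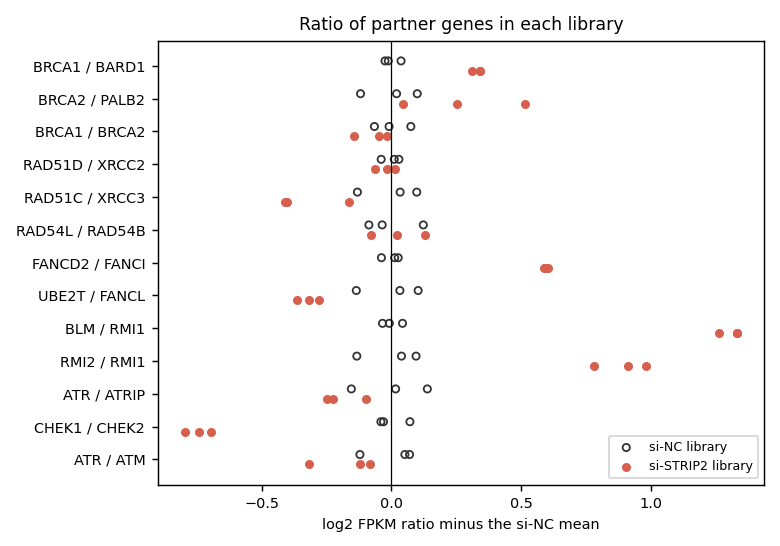
Log2 ratio of FPKM of 13 pairs of partner or related genes in each library, less the mean of the 3 si-NC libraries. Open circles are si-NC and filled circles si-STRIP2. BLM / RMI1 moves furthest to the right (2.48-fold) and CHEK1 / CHEK2 furthest to the left (1.68-fold lower), while RAD51D / XRCC2 and RAD54L / RAD54B stay around 0.

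Genes already high in FPKM were not those that rose most. FPKM also depends on exonic size, so an order of genes by FPKM is not one by transcript number. The 6 members with a mean of at least 10 FPKM over the 6 libraries (RMI1, UBE2T, RAD51AP1, TOPBP1, CHEK1 and FANCI, a limit chosen after their values were seen) had a median log2 fold change of -0.00033, and the 27 below it one of 0.37, with 18 called higher. Across the 33 genes, which share their libraries, the log2 fold change had a Pearson r of -0.38 and a Spearman rho of -0.29 with the log2 mean level. With the log2 span of the gene these were 0.053 and 0.08, and with the log2 exonic size, by which FPKM values are divided, 0.31 and 0.22. In the order of levels RMI1 went from rank 1 to rank 3, behind UBE2T and RAD51AP1, FANCA from 19 to 13 and BARD1 from 8 to 15. In si-STRIP2 these first 3 lay apart by more than their spread, at 32.6 ± 1.9, 22.4 ± 0.373 and 19.7 ± 0.843 FPKM (SD, n = 3), while RMI1 and TOPBP1, at 19.2 ± 0.466, did not. The summed level of the 33 genes was 232, 241 and 233 FPKM in si-NC and 250, 245 and 247 in si-STRIP2. Within it the sum of BLM, RMI1 and RMI2 went from 43.1, 46.0 and 46.5 to 32.9, 32.6 and 34.2 FPKM. Of these only RMI1 fell, from a mean of 34.4 to 19.7 FPKM. The topoisomerase gene TOP3A was counted under junction resolution and not in this sum (log2 fold change 0.19, edgeR adjusted p = 0.00156). The core complex with UBE2T went from 52.1, 52.4 and 50 to 64.7, 59.1 and 59.8 FPKM.

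Promoters were searched on both strands for E2F and CHR words, known from S and G2 phase genes, and for CCAAT and GC box words. Of the members, 30 had an entry in the RefSeq promoter table (GRCh38.p14), and RAD54B, FANCI and RMI2 did not. An E2F word (TTTGGCGC, TTTCGCGC, TTTCCCGC or TTTGCCGC) was found in 5 of 30, or 16.7%, in FANCA, FANCC, FANCD2, XRCC2 and TOPBP1. The same words stood in 3.33% of all promoters, in 5.35% of those of tested genes and in 12 of 19 promoters (63.2%) of a list of G1/S genes. In FANCD2, shown above, the word begins 2 bases before the start site, and in FANCA 172 bases before it. Of the 5 genes with such a word, 3 rose, and FANCC and TOPBP1 were not called. Their median log2 fold change was 0.25, beside 0.30 for the 25 without one.

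The other words were CCAAT, the GC box GGGCGG, and TTTGAA or TTCGAA, words of the CHR element. CCAAT was found in 15 of 30 member promoters (50%, beside 35.7% of all promoters and 36.8% of those of tested genes), with a median log2 fold change of 0.48 and 10 of 15 genes called higher, against 0.23 and 8 of 15 for those without. It is present in RMI1, PALB2 and CHEK1, which fell, as well as in BLM and CHEK2. A GC box was found in 22 of 30 (73.3%), close to the 70.1% among promoters of tested genes (44.6% of all promoters). Of these 22, 16 were called higher (median 0.35), and of the 8 without a GC box only FANCM and ATM were (median -0.014), the others being RMI1, PALB2, RAD51B, BRCA2, RAD51C and FANCF. A CHR word was found in 4 of 30 (13.3%, beside 16.6% of all promoters and 11.0% of those of tested genes). In the 6 promoters shown no base belongs to more than 1 word, and these counts are descriptions of letters, not of binding.

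Lists of 75 other genes covered recombination, the Fanconi anemia pathway, junction resolution and ATR signalling. Of the 72 tested, 30 were higher and 13 lower (median log2 fold change 0.15). That is 41.7% higher and 59.7% called, beside 27.8% and 54.8% of all genes tested. Of 10 genes of end resection and its single-strand coat, 5 rose, with the smallest adjusted p for RPA1 (28.8 ± 0.627 to 44.6 ± 0.720 FPKM, SD, n = 3; log2 fold change 0.63, edgeR adjusted p = 2.98e-15) and the nuclease MRE11 (0.41, 8.01e-08). In the same list 4 fell, and those with the smallest adjusted p were RBBP8, the cofactor that starts resection (45.1 ± 1.96 to 37.4 ± 0.903 FPKM; -0.27, edgeR adjusted p = 9.10e-07), and NBN, another subunit of the MRE11 complex (-0.28, 1.09e-06), where OSGIN2 overlaps NBN with most of 86.8% as many counts. RAD50, the remaining subunit of that complex, had the largest fall of the list (-0.31, edgeR adjusted p = 0.00538) and is named after its value was seen. The difference between MRE11 and these partners was not tested.

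Of 18 further Fanconi anemia pathway genes 7 rose and 4 fell (median 0.013). That is 38.9% higher and 61.1% called, beside 27.8% and 54.8% of all genes tested. UHRF1, a sensor of crosslinks, rose from 13.8 ± 0.21 to 20.4 ± 1.19 FPKM (log2 fold change 0.57, edgeR adjusted p = 1.59e-12), and CENPX, a partner of FANCM, rose by 0.44 (6.32e-07), beside LRRC45 among overlapping genes at 47.8% of its counts. USP1, the protease that removes ubiquitin from FANCD2 and FANCI, fell from 59.7 ± 2.05 to 42.0 ± 2.01 FPKM (SD, n = 3; log2 fold change -0.51, edgeR adjusted p = 3.58e-12), with no overlapping gene. REV3L, of the polymerase that bypasses the unhooked crosslink, fell by 0.30 (edgeR adjusted p = 1.61e-06), with overlapping genes at 22.2% of its counts. Transcripts of FANCD2 and FANCL were thus higher and that of USP1 lower. The UBE2T and FANCI calls were lost in 9 and 12 of 16 alternatives. FANCC and FANCF were not called, nor was WDR48 of this list (-0.12, edgeR adjusted p = 0.0739). These are RNA levels, and the ubiquitin mark itself was not measured here.

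Among 12 genes around ATR, 5 rose and 2 fell (median 0.13). That is 41.7% higher and 58.3% called, beside 27.8% and 54.8% of all genes tested. CDC25A, the phosphatase that CHEK1 restrains, rose by 0.58 (edgeR adjusted p = 3.95e-10) and CLSPN, the adaptor through which ATR reaches CHEK1, by 0.29 (3.56e-06). RHNO1 (-0.20) and RAD17 (-0.13) were lower, with overlapping genes at 300% and 171% of their counts. Of the 8 tested genes of junction resolution 5 rose and none was called lower, with the smallest adjusted p for the nuclease subunit EME1 (0.59) and GEN1 (0.50), whose overlapping genes held 862% and 201% as many counts. Of 18 other recombination genes 6 rose, with the smallest adjusted p for MCM8 (0.44) and MDC1 (0.24), and 3 fell, with the smallest adjusted p for SFR1 (-0.23) and HELQ (-0.31). Genes overlapping MDC1 held 931% as many counts. Of 6 partners of BRCA1 in the complex that reads ubiquitin at breaks or nearby, BABAM1 (0.39) and BAP1 (0.17) rose and none was called lower. Among these partners 33.3% were higher and 33.3% called, beside 27.8% and 54.8% of all genes tested. Among the other recombination genes 33.3% were higher and 9 of 18 were called. The shares called in both lists were thus below that of all genes tested. For junction resolution 62.5% were higher and 62.5% called.

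End joining, the other route of break repair, was set beside these. Of its 16 genes 10 rose and 2 fell (median log2 fold change 0.30). That is 62.5% higher and 75.0% called, beside 27.8% and 54.8% of all genes tested. XRCC6, a subunit of the Ku ring, rose from 173 ± 4.80 to 342 ± 9.34 FPKM (SD, n = 3; log2 fold change 0.98, edgeR adjusted p = 3.53e-19), more than any recombination or Fanconi anemia gene described here. PARP1, a sensor of breaks, rose by 0.68 (edgeR adjusted p = 6.06e-15), and SHLD2 (-0.19) and LIG4 (-0.23), the ligase of the pathway, were lower. GLUD1 and other genes overlapping SHLD2 held 383% as many counts. The G1/S genes with the smallest adjusted p were the helicase subunits MCM5 (1.51) and MCM4 (1.37), and the G2/M genes KIF20A (0.77) and CCNA2 (0.62), with overlapping genes at 156% and 82.3% of the counts of the last pair.

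**Figure D4:**
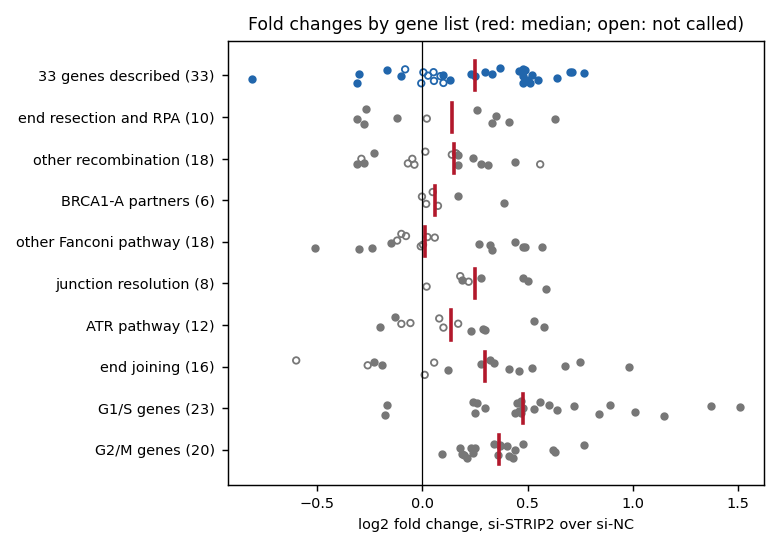
Log2 fold changes of the 33 genes (blue) and of 9 related lists (grey, with the number of genes tested), 1 point per gene, filled where the edgeR adjusted p was under 0.05; red bars are medians. The 33 genes have a median of 0.25, between the other Fanconi pathway genes at 0.013 and the G1/S genes at 0.48, and RMI1 is the lowest point of its row.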

How the data were processed

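The authors deposited 1 table with a raw count and an FPKM value per gene and library, per the file headers. The FPKM values followed from count, exonic size and column total within 0.005. The submitters' processing notes list bcl2fastq 2.20.0.422, FastQC 0.10.1, cutadapt 1.9.1, HISAT2 2.2.1, HTSeq 0.6.1 and GRCh38.p13; per the labels' protocols the libraries were poly(A)-selected and directional. The strand setting of counting is not given in the sources used here, so counts of overlapping genes, as a percent of the named gene's, are given where they reach 10%.

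Counts were tested with edgeR 4.0.16 in R 4.3.3: filterByExpr (minimum count 10, leaving 15687 genes), TMM scaling, a quasi-likelihood model with group as its term, 2-sided, Benjamini-Hochberg adjustment over all genes tested, called under 0.05. Standard errors are the absolute log2 fold change over the square root of F. Group overlap was read on TMM-scaled counts, and partner ratios by exact permutation tests. DESeq2 1.42.0 and limma 3.58.1 served as alternatives. The code was tested on simulated data.

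The members and lists were chosen with earlier results of these data known. Each member was named, with the value in every library for the 2 members of each role with the smallest adjusted p, those called lower or not called, and those of pairs whose ratios did not overlap; from each related list, the 2 genes with the smallest adjusted p in each direction.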

Additional observations from a re-analysis of the deposited data

How the results depend on the processing

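The median log2 fold change of the members was 0.21 to 0.26 in all 16 alternative fits, and 14 of the 25 called members stayed called in each. None was called in the other direction. A test against a 1.2-fold change left 14 members called, 13 higher and 1 lower (RMI1), by its stricter construction. Members called lower numbered 3 under DESeq2, 3 under limma with a pseudocount of 1 and 3 with 0.1, and 2 to 5 with 1 library left out (2 without si-NC replicate 1 or si-STRIP2 replicate 1, 3 without si-NC replicate 2 or si-STRIP2 replicate 2). Those called with at least 1.5-fold numbered 3 under limma on log2(FPKM + 1), whose pseudocount shrinks low genes. Restricted to the 22 members whose overlapping genes hold under 10% as many counts, 16 were called, 13 of them higher. Values near 0 changed sign. RAD51AP1 was at -0.0022 with DESeq2 size factors, -0.0019 with DESeq2, -0.013 with a filter of 1 FPKM and -0.045 to 0.04 with 1 library left out, and TOPBP1 at -0.025 to 0.015 with 1 left out. Leaving out 1 library moved the log2 ratio shift of RAD51D to XRCC2 between -0.039 and 0.0016 and that of RAD54L to RAD54B between -0.031 and 0.082. The replicate numbers did not pair the libraries (correlations of same-numbered deviations -0.086, -0.013 and -0.072), and with the replicate block 23 members were called, 19 higher and 4 lower. The counts of single members ran from 136 to 3615, and precision was lowest for RAD51B, with an SE of 0.11 on the log2 scale.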

Other observations

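The pathway terms that the deposited table itself gives were counted as a second listing, chosen after seeing the file. Of 56 tested genes under Homologous recombination 25 were higher and 13 lower (median log2 fold change 0.12), and without the members described above 17 and 10 of 42 (median 0.071). Of 75 tested genes under Fanconi anemia pathway 35 were higher and 12 lower (median 0.15), and without those members 23 and 10 of 56 (median 0.14). Under Non-homologous end-joining 8 of 14 were higher and 2 lower (median 0.27). In that order the full lists had 44.6%, 46.7% and 57.1% called higher, beside 27.8% of all genes tested. Without the members the shares under Homologous recombination and Fanconi anemia pathway were 40.5% and 41.1%.

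Genes that overlap a member's locus had values that differed from the member's. NBR2, which starts beside BRCA1 on the opposite strand, had a log2 fold change of -0.55 (edgeR adjusted p = 8.10e-07) while BRCA1 was at 0.027. FSBP, on the same strand as RAD54B, was at -1.22 (edgeR adjusted p = 1.23e-14) while RAD54B was at 0.48. POLG, opposite to FANCI, was at 0.54 (edgeR adjusted p = 5.55e-10) and FANCI at 0.10. How reads in shared stretches were divided is not given in the sources used here.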
